A study of Mus musculus with 24 samples.

Results

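Mitochondrial ribosomal protein genes were taken as all genes whose name in the array files starts with Mrpl or Mrps followed by a digit. There were 76 of them among 34844 gene names on the array, measured by 106 probes. Each gene was read from its brightest detected probe, and all 76 were well above background on all 24 arrays, so no member was lost to a filter on dim probes. By the assignments used here, 49 encode proteins of the large subunit and 26 proteins of the small subunit, with Mrps18a and Mrps30 counted in the large one. The product of the remaining gene, Mrps36, is now placed in the 2-oxoglutarate dehydrogenase complex. Of the 75 ribosomal members, 48 have a bacterial counterpart and 27 belong to families specific to mitochondria.

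The mitochondrial ribosome translates the few proteins that the mitochondrial genome itself encodes, all of them membrane subunits of the respiratory chain and the ATP synthase. Its ribosomal RNAs come from mitochondrial DNA, but every one of its proteins is encoded in the nucleus, made on cytosolic ribosomes and imported. Heart muscle depends on oxidative phosphorylation, and inherited defects in several of these proteins cause cardiomyopathy in humans. Doxorubicin is an anthracycline that traps type II topoisomerases on DNA. Top2b encodes DNA topoisomerase II beta, the type II enzyme of non-dividing cells such as cardiomyocytes.

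The series compared primary cardiomyocytes of 2 genotypes on a 129SvEv/C57BL/6 background, Top2b-/- with a deletion of Top2b restricted to the heart, and wild type. Mice, labelled as 6-week-old males, received 1 intraperitoneal injection of doxorubicin at 25 mg/kg or of PBS, and cells were isolated on a Langendorff apparatus 16 h or 72 h later. The 8 groups of 3 arrays each were Top2b-/- with doxorubicin, Top2b-/- with PBS, wild type with doxorubicin and wild type with PBS, at each time. The sources used here do not name the promoter that drives the deletion or say whether each array came from 1 animal. The p-values thus reflect the spread between arrays, which may be partly technical. Levels are log2 processed intensity minus the 75th percentile of the same array, which was an intensity of 146 to 282, and levels of different genes are not compared because probes differ in brightness.

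Several facts of the arrays bear on the results. Top2b itself averaged 2.99 ± 0.27 on Top2b-/- arrays and 4.2 ± 0.16 on wild-type arrays at 16 h (SD, n = 6 each), a difference of -1.22 without overlap (exact permutation p = 0.00216, two-sided). At 72 h it averaged 2.51 ± 0.34 on Top2b-/- arrays and 3.43 ± 0.17 on wild-type arrays (SD, n = 6 each), again without overlap (exact permutation p = 0.00216). The position of this probe relative to the deletion was not known here. For 4 arrays of 16 h another label field gives the opposite genotype from the title used here, namely replicate 1 of the doxorubicin groups and replicate 3 of the PBS groups, in both genotypes. Despite the male label, signal of the Y-linked Ddx3y passed the background criterion on only 7 arrays, among them all 3 wild-type PBS arrays of 16 h and 1 of 3 wild-type doxorubicin arrays of 16 h, and Xist was well above background on the other 17. All 10 cardiomyocyte markers checked, such as Myh6 and Tnnt2, were detected in every group. No slide held arrays of both times, and the times were therefore not tested against each other.

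Promoter sequences are shown because proteins of the mitochondrial ribosome are among the known targets of the nuclear factors NRF1, ETS-family factors such as GABP, and YY1. RefSeq promoters (GRCm38.p6, 250 bases before to 50 bases after the start site) were available for 67 of the 76 members. The stretches below give the 130 bases before the start site, with matches in capitals, for Mrpl34 and Mrps16 and for Mrpl45 and Mrps22. The first pair are the largest decreases after doxorubicin in wild type at 16 h that have an entry. The second pair were added after their values were seen, as examples of matches.
Mrpl34 (chr8:71464796-71464925, plus strand): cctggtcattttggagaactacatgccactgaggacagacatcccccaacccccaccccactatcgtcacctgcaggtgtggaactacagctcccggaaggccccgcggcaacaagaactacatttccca
Mrps16 (chr14:20393635-20393764, minus strand, 1 of 2 listed start sites): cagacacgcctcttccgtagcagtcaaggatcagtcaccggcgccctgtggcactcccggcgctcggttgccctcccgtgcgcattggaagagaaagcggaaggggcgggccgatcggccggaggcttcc
Mrpl45 (chr11:97315586-97315715, plus strand): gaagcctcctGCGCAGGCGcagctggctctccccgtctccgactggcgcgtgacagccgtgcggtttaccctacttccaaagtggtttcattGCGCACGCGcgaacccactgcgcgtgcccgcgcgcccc
Mrps22 (chr9:98601680-98601809, minus strand): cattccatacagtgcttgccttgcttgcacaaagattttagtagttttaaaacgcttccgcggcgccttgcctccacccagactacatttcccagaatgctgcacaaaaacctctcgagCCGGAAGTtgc

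The capitals in Mrpl45 mark the NRF1 word GCGCANGCG, which also occurred once after the start site, and those in Mrps22 mark the ETS word CCGGAAGT. Both strands of all 300 bases were searched, and the words searched do not overlap in these stretches. The NRF1 word was found in 15 of 67 members (22.4%), against 7.03% of 27025 genes with a promoter. The ETS word was found in 12 of 67 members (17.9%), against 4.31% of all genes. The YY1 word AAGATGGCG was found in 8 of 67 members (11.9%), against 1.64% of all genes. At least 1 of these 3 words was present in 33 members (49.3%), against 11.9% of all genes, while the E-box CACGTG was in 5 members (7.46%), against 8.09%. The members' promoters were also richer in G and C, at a median of 58.3%, against 52.7% over all genes. Of the 15 members with a promoter entry that were lower after doxorubicin in wild type at 16 h, 3 held the NRF1 word, 5 the ETS word and 2 the YY1 word. Of the other 52 members 12 held the NRF1 word, 7 the ETS word and 6 the YY1 word. Mrpl34 and Mrps16, which decreased most, held none of them in the stretches shown. A match is a description of letters and not a binding site.

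After doxorubicin in wild-type cardiomyocytes at 16 h, 18 of 76 members (23.7%) were lower and 0 were higher at an adjusted p under 0.05 (limma, Benjamini-Hochberg over 18735 genes). Over all genes tested, 27.9% passed, 14.3% lower and 13.6% higher. The fitted difference was below 0 for 63 of 76 members and for 52.4% of all genes. The median over members was -0.24, against -0.03 over all genes. The 3 doxorubicin arrays all lay below the 3 PBS arrays for 27 members (35.5%), against 18.8% of all genes. Without adjustment 29 members (38.2%) had a p under 0.05 and were lower, against 20.5% of all genes. The decreases were moderate, since the 18 ranged from 1.35-fold to 2.34-fold and only 2 members, Mrpl34 and Mrps16, passed 2-fold. Differences of this kind in bulk RNA do not separate fewer cells of a type from less RNA per cell.

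**Figure D1:**
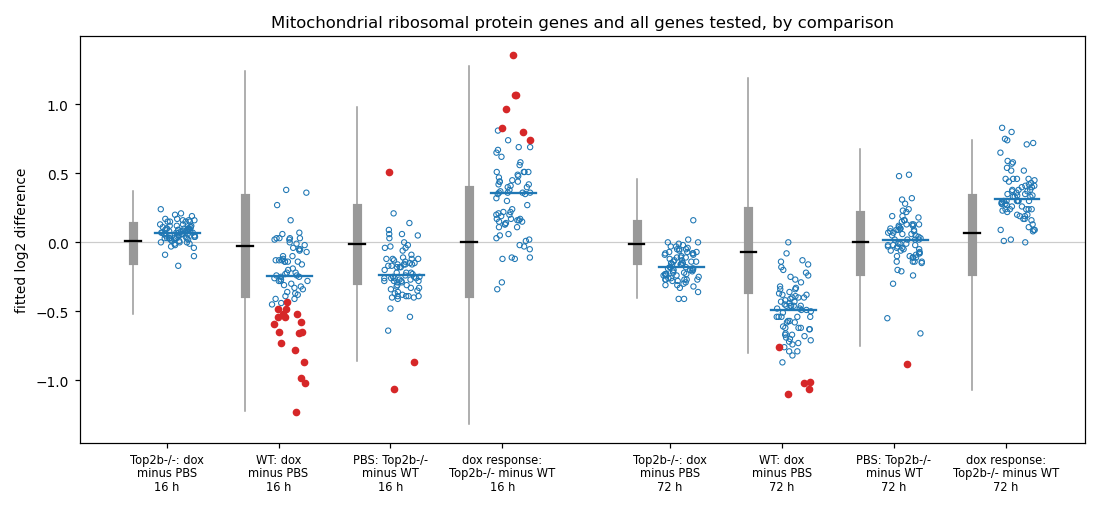
Fitted log2 differences in 8 comparisons (vertical axis). Points are the 76 members, red where the adjusted p is under 0.05, with their median as a blue line. The grey bar beside them spans the 25th to 75th percentile of all genes tested, the thin line the 5th to 95th, and the black tick the median. The median of the members lies below the median of all genes after doxorubicin in wild type at both times. In Top2b-/- cells at 16 h the members lie within a narrow band around the median of all genes.

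Among large-subunit members, 12 of 49 were lower. Mrpl34, a short RNA-binding protein of the large subunit, had levels of 4.45, 3.92 and 4.59 after doxorubicin, against 5.36, 5.54 and 5.74 with PBS. The groups did not overlap, and the difference was -1.23 ± 0.21 (SE, n = 3 each, limma adjusted p = 0.00224). Mrpl19, the counterpart of a bacterial protein at the interface between the subunits, had 1.78, 1.35 and 1.72 after doxorubicin, against 2.46, 2.62 and 2.69 with PBS (-0.98 ± 0.17, limma adjusted p = 0.00243). All doxorubicin arrays were again below all PBS arrays, with doxorubicin replicate 2 lowest for both genes. Mrpl15, another protein with a bacterial counterpart, had 4.71, 4.17 and 4.48 after doxorubicin, against 5.22, 5.33 and 5.42 with PBS (-0.87 ± 0.15, limma adjusted p = 0.00261). A second, dimmer probe for Mrpl15 gave -1.78 (limma adjusted p = 0.000227), the same direction at a larger size.

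Mrpl45, which anchors the large subunit to the inner membrane, had 4.58, 4.32 and 4.13 after doxorubicin, against 5.05, 5 and 5.19 with PBS. The groups did not overlap (-0.73 ± 0.14, limma adjusted p = 0.00426). Mrpl47, at 3.28, 3.14 and 4.05 after doxorubicin, against 4.21, 4.22 and 4.4 with PBS, had 1 doxorubicin array close to the PBS arrays (-0.78 ± 0.21, limma adjusted p = 0.0209). Mrpl35, a large-subunit protein with a bacterial counterpart, had 0.84, 0.36 and 0.52 after doxorubicin, against 1.06, 1.31 and 1.33 with PBS (-0.66 ± 0.15, limma adjusted p = 0.00835). Mrpl12 forms the flexible stalk that recruits translation factors, and had 6.51, 6.06 and 6.23 after doxorubicin, against 6.73, 6.95 and 7.06 with PBS (-0.65 ± 0.15, limma adjusted p = 0.00978). Mrpl10, which holds Mrpl12 in the stalk, did not pass, at -0.07 ± 0.11. The remaining large-subunit members that were lower, Mrpl18, Mrpl39, Mrpl51, Mrpl43 and Mrpl40, differed by -0.59 to -0.43.

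In the small subunit, 6 of 26 members were lower. Mrps16, a conserved protein whose loss in humans causes a fatal respiratory chain deficiency, had 5.25, 5.19 and 5.55 after doxorubicin, against 6.29, 6.27 and 6.5 with PBS. This is 49.2% of the PBS level without overlap (-1.02 ± 0.13, limma adjusted p = 0.00055), the smallest adjusted p of the 18. Mrps22, mutated in a human mitochondrial cardiomyopathy, had 2.82, 2.4 and 2.89 after doxorubicin, against 3.18, 3.42 and 3.48 with PBS (-0.65 ± 0.15, limma adjusted p = 0.00917). Mrps5, Mrps6 and Mrps27 differed by -0.54, -0.54 and -0.48 with no overlap between groups. Mrps35, at -0.58, passed although its highest doxorubicin array (4.14) lay above its lowest PBS array (4.13). By origin, 10 of 48 members with a bacterial counterpart and 8 of 27 mitochondria-specific members were lower, so the decrease was found in both.

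The threshold was not passed by the remaining members. Mrpl3 and Mrpl44, both linked to human hypertrophic cardiomyopathy, came close, at -0.28 ± 0.10 (limma adjusted p = 0.061) and -0.31 ± 0.11 (limma adjusted p = 0.0527). Of the 3 S18 paralogues, Mrps18a was at -0.45 ± 0.17 (limma adjusted p = 0.0687), while Mrps18b (-0.05) and Mrps18c (0.03) stayed within 1 SE of 0. At the upper end were Mrpl9 (0.38 ± 0.17), Mrps26 (0.36 ± 0.14) and Mrpl33 (0.27 ± 0.11), none past the threshold. Mrpl33 and Mrps26 were the only members whose doxorubicin arrays all lay above the PBS arrays (2.63%, against 17.9% of all genes). Mrpl14 was at -0.19 ± 0.11 and Mrpl1 at -0.32 ± 0.16. The brightest probe of Mrpl30 maps to chromosome 11, whereas the RefSeq gene lies on chromosome 1, and its second probe on chromosome 1 gave -0.10, against -0.14 for the brightest, neither past the threshold. For 5 of the 18 lower members there were 7 further detected probes, and all 7 gave a negative difference. Of these, the probes of Mrpl39 (-0.65, limma adjusted p = 0.124) and Mrpl43 (-0.4, limma adjusted p = 0.0753) did not pass. Nor did 1 probe of Mrpl47 (-0.33, limma adjusted p = 0.133), while the rest of the 7 passed. Among members that did not pass, the second, dimmer probe of Mrps25 was higher (0.94, limma adjusted p = 0.00217), while its brightest probe gave -0.01. Dimmer second probes of Mrps36 (-0.76, limma adjusted p = 0.00743) and Mrps14 (-0.81, limma adjusted p = 0.0208) were lower. The brightest probes of these genes gave -0.39 and -0.12.

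The count in wild type at 16 h moved with single arrays. The share of all genes past the threshold in either direction moved too, not always the same way. Without wild-type PBS replicate 3 it was 11 (all genes 20.9%), and without wild-type doxorubicin replicate 1 it was 31 (all genes 31.8%). Without the 4 arrays of conflicting genotype labels it was 10 (all genes 19.1%), and with the other label field taken as genotype 0 genes passed at all. The 12 arrays of 16 h lay on 2 slides, and all 6 wild-type arrays were on 1 of them. With slide as a block the count was 18 (all genes 24.6%), and within that slide alone it was 10 (all genes 17.5%), with a median of -0.24 in both. With Ddx3y signal as a covariate it was 15 (all genes 28.2%), with a median of -0.23. However, all PBS arrays and only 1 doxorubicin array carry that signal. Quantile normalization gave 27 lower and 2 higher (all genes 30.2%).

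In Top2b-/- cardiomyocytes at 16 h no difference between doxorubicin and PBS was detectable for any member. None of the 76 passed, nor did any gene on the array (0.00% of 18735 genes, limma), and at an unadjusted p under 0.05 there were 0 members, against 4.26% of all genes. The fitted differences ran from -0.17 (Mrps18b) to 0.24 (Mrps26) with a median of 0.07. They were below 0 for 10 of 76 members, against 47.6% of all genes, but for 32 of 76 with slide as a block, with a median of 0.01. In the deposited value table they were below 0 for 1 of 76. There the median was 0.17 over members and 0.11 over all genes, against 0.01 over all genes in the main fit. All 3 doxorubicin arrays were on slide 2, with 1 of the 3 PBS arrays. The 18 members that were lower in wild type had differences of -0.01 to 0.21 in Top2b-/- cells, 17 of them above 0. Mrpl34 had 4.89, 5.39 and 5.54 after doxorubicin, against 5.11, 5.02 and 5.29 with PBS (0.13 ± 0.21), and Mrps16 had 6.04, 6.1 and 6.24 after doxorubicin, against 6.09, 5.92 and 6.23 with PBS (0.05 ± 0.13). In both cases the groups overlapped. The 95% intervals of the 76 fitted differences reached down to -0.51 at most (Mrps34), so a decrease to 50% lay outside all of them.

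**Figure D2:**
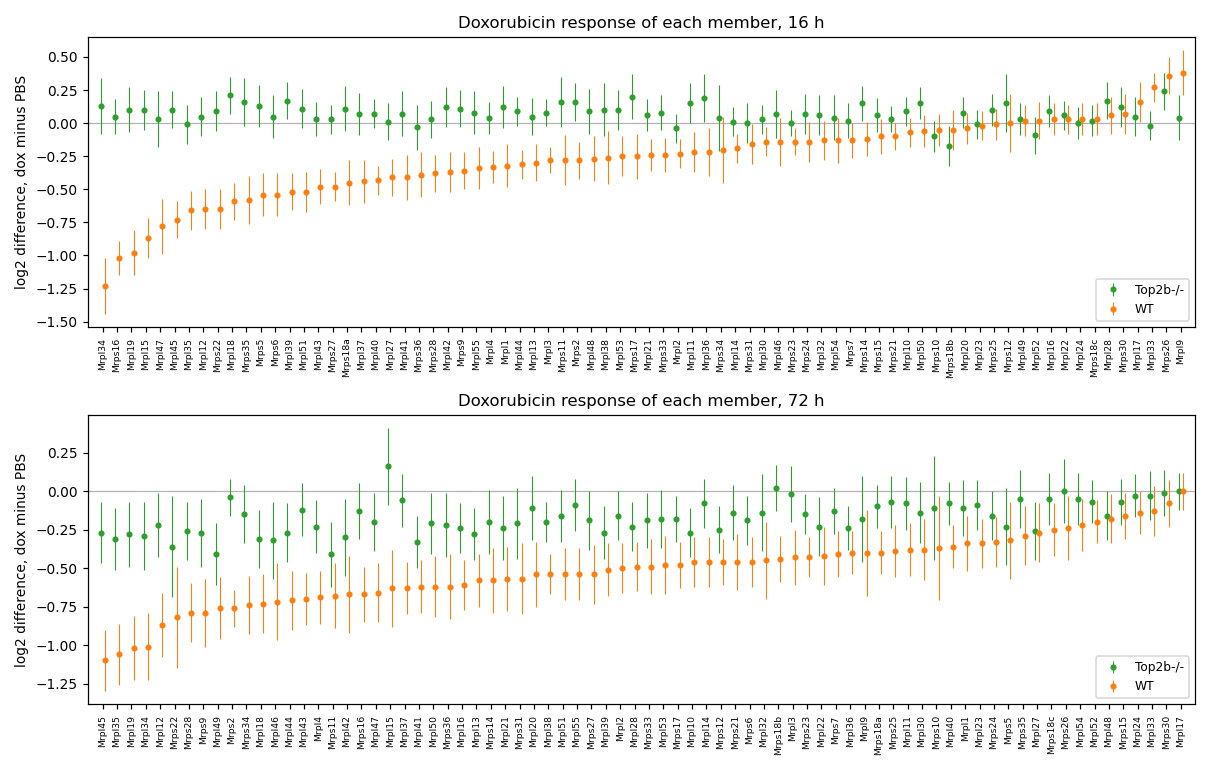
Doxorubicin minus PBS (log2, vertical axis, ± SE, 3 arrays per group) for each of the 76 members in Top2b-/- cells (green) and wild type (orange), at 16 h above and 72 h below. Members are sorted by the wild-type value. At 16 h the Top2b-/- points stay between -0.17 and 0.24 across the whole range of wild-type values, and at 72 h they lie mostly between 0 and -0.41.

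The difference between these responses was tested directly. At 16 h the Top2b-/- response minus the wild-type response was above 0 for 67 of 76 members, with a median of 0.35, against 0 over all genes. It passed for 7 members (9.21%), all of them higher, against 6.21% of all genes higher and 11.5% in either direction (limma), so the share of members past the threshold was near the background. The 7 were Mrpl34 (1.36 ± 0.30, limma adjusted p = 0.0188), Mrps16 (1.07 ± 0.19, limma adjusted p = 0.00764), Mrpl19 (1.07 ± 0.24, limma adjusted p = 0.0205), Mrpl15 (0.97 ± 0.22, limma adjusted p = 0.0202), Mrpl45 (0.83 ± 0.20, limma adjusted p = 0.0273), Mrpl18 (0.80 ± 0.20, limma adjusted p = 0.0288) and Mrps22 (0.74 ± 0.21, limma adjusted p = 0.0484). All 7 are among the 18 lower in wild type, but both comparisons use the same wild-type arrays. With slide as a block the count was 0 (all genes 2%) and the median 0.27. The Top2b-/- doxorubicin arrays of 16 h were all on the slide that holds no wild-type array. Within that slide the Top2b-/- response had a median of 0.01, which rests on 1 PBS array, replicate 3, whose genotype labels conflict, and the difference between responses could not be computed within either slide. The count also moved with single arrays, as did the share of all genes past the threshold. It was 1 without Top2b-/- PBS replicate 2 (all genes 5.41%) or Top2b-/- doxorubicin replicate 2 (5.94%) or 3 (5.58%). It was 2 without Top2b-/- PBS replicate 1 (5.63%). Without wild-type PBS replicate 2 it was 3 (6.75%), and without replicate 3 it was 4 (7.37%). Without wild-type doxorubicin replicate 1 it was 15 (16.3%), and without replicate 3 it was 16 (25.3%).

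**Figure D3:**
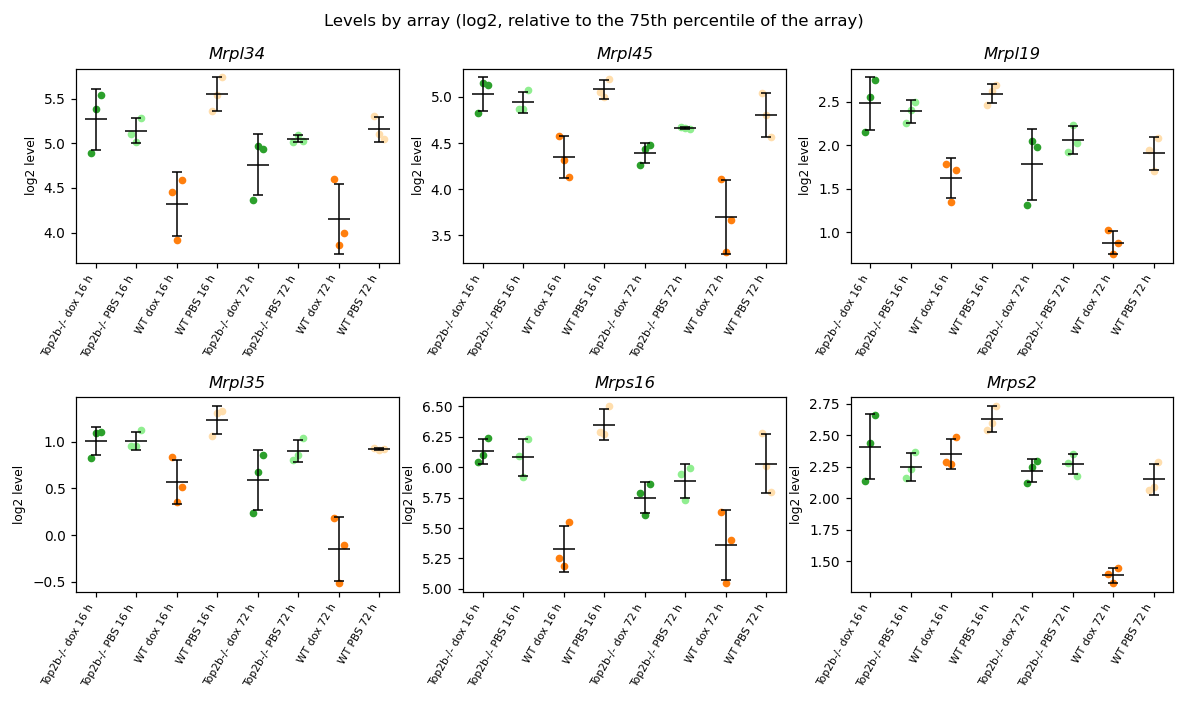
Level on each array (log2 relative to the 75th percentile of the array) of 6 members in the 8 groups, with mean and SD as black bars (n = 3). In wild type the doxorubicin arrays lie below the PBS arrays at both times for Mrpl34, Mrpl45, Mrpl19, Mrpl35, Mrps16 and Mrps2, while in Top2b-/- cells the groups overlap or lie close together.

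At 72 h in wild type all 76 members had a fitted difference below 0 after doxorubicin, against 57.1% of all genes, and the median was -0.49, against -0.07 over all genes. The threshold was passed by 5 members (6.58%), all lower, against 1.66% of all genes lower and 2.62% in either direction (limma, 19665 genes). Without adjustment 55 members (72.4%) had a p under 0.05 and were lower, against 15.3% of all genes. The doxorubicin and PBS arrays did not overlap for 55 members (72.4%), against 16.3% of all genes. The smallest difference was at Mrpl17, whose arrays of 3.25, 3.18 and 3.21 after doxorubicin and 3.12, 3.29 and 3.24 with PBS overlapped.

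Mrpl45 had 4.11, 3.32 and 3.67 after doxorubicin, against 5.04, 4.8 and 4.56 with PBS (-1.10 ± 0.20, limma adjusted p = 0.0301). Mrpl35 had 0.18, -0.51 and -0.1 after doxorubicin, against 0.93, 0.91 and 0.92 with PBS (-1.06 ± 0.20, limma adjusted p = 0.0311). Neither gene's groups overlapped, and Mrpl35 varied far more among doxorubicin arrays than among PBS arrays. Mrpl19 had 1.02, 0.75 and 0.88 after doxorubicin, against 1.94, 1.7 and 2.08 with PBS (-1.02 ± 0.21, limma adjusted p = 0.0373). Mrpl34 had 4.6, 3.86 and 4 after doxorubicin, against 5.31, 5.11 and 5.05 with PBS (-1.01 ± 0.22, limma adjusted p = 0.0457). These 4 members were lower in wild type at both times, on separate sets of arrays, which is 4 of the 18 at 16 h (22.2%) and 4 of the 5 at 72 h. The fifth, Mrps2, a small-subunit protein with a bacterial counterpart, had 1.4, 1.33 and 1.45 after doxorubicin, against 2.07, 2.09 and 2.29 with PBS (-0.76 ± 0.12, limma adjusted p = 0.0255). At 16 h it was at -0.28 ± 0.14 and did not pass. The second, dimmer probe of Mrps2 gave -0.57 at 72 h and did not pass (limma adjusted p = 0.0744). Mrpl15 did not pass with its brightest probe (-0.63), while its second probe gave -1.16 (limma adjusted p = 0.0341). Mrpl43 (-0.7) and Mrps14 (-0.58) did not pass with their brightest probes either. Their dimmer second probes gave -0.72 (limma adjusted p = 0.0385) and -1.64 (limma adjusted p = 0.0258).

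The 18 members lower at 16 h had differences of -1.10 to -0.29 at 72 h with a median of -0.67, where all 76 members were below 0. Of the 18, 16 had an unadjusted p under 0.05 and 14 had groups that did not overlap, against 72.4% of all members for either. Mrpl12 came close to the threshold at 72 h (-0.87 ± 0.21, limma adjusted p = 0.0526), as did Mrps28 (-0.79 ± 0.19, limma adjusted p = 0.0555), while Mrps16 was at -0.67 ± 0.18 (limma adjusted p = 0.0693) and Mrps22 at -0.82 ± 0.33 (limma adjusted p = 0.161). Mrps22 had 1 doxorubicin array at 1.1 and the other two at 2.26 and 2.12, against 2.7, 2.34 and 2.9 with PBS. Mrpl44 was at -0.71 ± 0.19 (limma adjusted p = 0.0699), Mrpl3 at -0.43 ± 0.18, Mrpl10 at -0.46 ± 0.16 and the S18 paralogues at -0.40, -0.44 and -0.25 for Mrps18a, Mrps18b and Mrps18c. Mrpl33 stayed at -0.13 ± 0.16.

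The count at 72 h rests on few arrays. It was 0 without any 1 of wild-type PBS replicates 2 and 3, wild-type doxorubicin replicates 3 and 4 and Top2b-/- PBS replicate 3. The share of all genes past the threshold was then 0.00509% to 0.346%. The count was 1 without Top2b-/- PBS replicate 2 (all genes 0.58%) and 3 without Top2b-/- PBS replicate 4 (1.25%). It was 4 without Top2b-/- doxorubicin replicate 3 (1.52%) or 4 (1.3%). Without wild-type doxorubicin replicate 2, wild-type PBS replicate 4 and Top2b-/- doxorubicin replicate 2 it was 17 (5.82%), 11 (7.57%) and 8 (4.09%). The median over members stayed between -0.58 and -0.35 in all 12 of these fits. Replicates 2 and 3 of each group shared 1 slide and replicate 4 lay on another. With slide as a block 24 members were lower, against 13.1% of all genes in either direction, and within the first slide alone 0 members passed, against 4.02% of all genes, with a median of -0.59. The second slide holds 1 array per group and gives no test. Same-numbered arrays of 72 h deviated from their group means with a median correlation of 0.35, against -0.24 for other numbers. The main fit does not use this pairing. With replicate number as a block 37 members were lower, against 16.1% of all genes in either direction, with a median of -0.49. With Ddx3y signal as a covariate 0 members passed, against 0.107% of all genes, with a median of -0.51.

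Cell type markers were set beside these values. At 72 h in wild type all 10 cardiomyocyte markers had differences below 0, with a median of -0.36 and 0 past the threshold, and their summed level was 12.83 to 13.39 after doxorubicin, against 13.2 to 13.84 with PBS. Of 6 neutrophil markers 5 had a detected probe, and 3 of these were higher. All 5 were detected after doxorubicin and 1 with PBS, so no size is given for them. Their summed level was 7.02 to 7.85 after doxorubicin, against 6.7 to 7.95 with PBS, and overlapped. Endothelial markers had a median of 1.51 at 72 h, with 0 of 6 past the threshold. At 16 h the cardiomyocyte markers had a median of -0.13 with 1 lower. Smooth muscle and pericyte markers had a median of -1.08 with 4 of 6 lower, and fibroblast markers a median of -1.05 with 3 of 6 lower. Of 4 neutrophil markers tested at 16 h, 3 were higher. In wild type at that time 4 were detected after doxorubicin and 2 with PBS, so no size is given for them. Their summed level was 6.06 to 6.64 after doxorubicin, against 6.33 to 6.37 with PBS, and overlapped. The part of these differences in the members' values was not tested.

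In Top2b-/- cells at 72 h none of the 76 members passed, and neither did any gene (0.00% of 19665 genes, limma), with 0 members at an unadjusted p under 0.05, against 2.18% of all genes. The fitted difference was nevertheless below 0 for 74 of 76 members, against 51.6% of all genes, with a median of -0.18 and a range of -0.41 (Mrpl49) to 0.16 (Mrpl15). The groups did not overlap, doxorubicin below PBS, for 22 members (28.9%), against 4.23% of all genes. Mrpl45 had 4.26, 4.43 and 4.48 after doxorubicin, against 4.67, 4.66 and 4.65 with PBS (-0.27 ± 0.20). Mrpl34 had 4.37, 4.97 and 4.94 after doxorubicin, against 5.02, 5.09 and 5.03 with PBS (-0.29 ± 0.22). In both the groups did not overlap, yet the difference did not pass the test. The 95% interval reached -1 for 1 member, Mrps22, whose lower bound was -1.08. It reached -0.5 for 50 of 76 members, so decreases near the wild-type median of -0.49 lay within most intervals.

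The difference between the responses at 72 h was above 0 for 75 of 76 members, with a median of 0.32, against 0.07 over all genes. No member and no gene passed (0.00% of all genes, limma), and 8 members (10.5%) had an unadjusted p under 0.05, against 6.84% of all genes. The largest was Mrpl45 at 0.83 ± 0.28 (limma adjusted p = 0.703). Slide as a block left the count at 0 and the median at 0.32.

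The genotypes were also compared without doxorubicin, in PBS. At 16 h Ddx3y was well above background on all 3 wild-type PBS arrays and Xist on all 3 Top2b-/- PBS arrays, so in this comparison genotype and sex-linked signal cannot be told apart. At 72 h 1 PBS array of each genotype carried Ddx3y. At 16 h 1 member was higher and 2 were lower in Top2b-/- cells, 3.95% of members, against 12.4% of all genes, of which 6.67% were higher and 5.69% lower (limma). Mrpl55, counterpart of a bacterial large-subunit protein, had 5.51, 5.44 and 5.58 in Top2b-/- cells, against 6.3, 6.77 and 6.64 in wild type (-1.06 ± 0.16, limma adjusted p = 0.00232). Mrpl15 had 4.44, 4.4 and 4.52 in Top2b-/- cells, against 5.22, 5.33 and 5.42 in wild type (-0.87 ± 0.15, limma adjusted p = 0.00599), although its second probe gave -0.25 and did not pass (limma adjusted p = 0.453). Mrpl33 had 8.23, 8.13 and 8.14 in Top2b-/- cells, against 7.55, 7.71 and 7.72 in wild type (0.51 ± 0.11, limma adjusted p = 0.0167). None of the 3 overlapped between genotypes. Among members that did not pass, dimmer second probes of Mrpl39 (-1.07, limma adjusted p = 0.039) and Mrps14 (-0.88, limma adjusted p = 0.0294) were lower. The brightest probes of these genes gave -0.12 and -0.29. Mrpl33 lost its call with slide as a block (0.52, limma adjusted p = 0.0514) and within slide 1 (0.52, limma adjusted p = 0.107), and Mrpl15 with Ddx3y signal as a covariate (-0.85, limma adjusted p = 0.0508). These values and the wild-type doxorubicin response use the same wild-type PBS arrays.

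With each gene read from its brightest probe, Mrpl55 alone passed at 72 h, 1.32% of members, against 2.12% of all genes. It had 5.58, 5.61 and 5.62 in Top2b-/- cells, against 6.72, 6.47 and 6.28 in wild type (-0.88 ± 0.17, limma adjusted p = 0.0201). It was therefore lower in Top2b-/- cells at both times, at 47.8% of wild type at 16 h and 54.2% at 72 h. Its call at 72 h was lost without wild-type PBS replicate 2 or 3 or any 1 of the 3 Top2b-/- PBS arrays. Mrps12, the decoding-centre protein of the small subunit, was at -0.64 ± 0.22 at 16 h (limma adjusted p = 0.0902) and -0.66 ± 0.15 at 72 h (limma adjusted p = 0.0527). Mrpl33 was at 0.49 ± 0.16 at 72 h (limma adjusted p = 0.172) and Mrpl15 at -0.55 ± 0.25 (limma adjusted p = 0.412), both without overlap and neither past the threshold. The dimmer second probe of Mrps14 was lower at 72 h (-1.36, limma adjusted p = 0.0214), while its brightest probe gave -0.21.

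**Figure D4:**
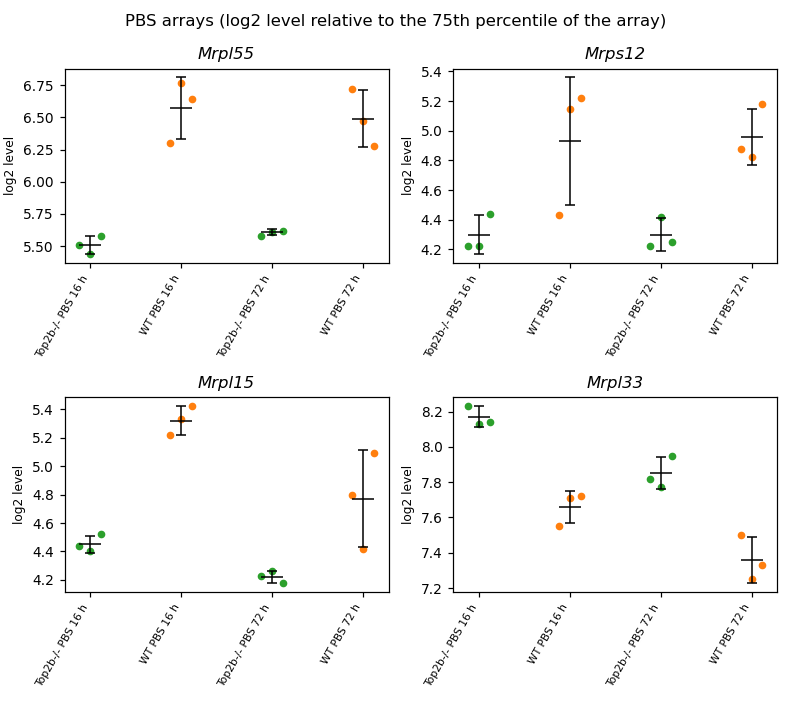
Level on each PBS array (log2 relative to the 75th percentile of the array) of Mrpl55, Mrps12, Mrpl15 and Mrpl33, with mean and SD as black bars (n = 3). Top2b-/- arrays lie below wild type for Mrpl55 and Mrpl15 and above it for Mrpl33 at both times, while Mrps12 overlaps at 16 h.

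Fitted genotype differences in PBS were also counted over all 76 members, past the threshold or not. Among those that did not pass at 16 h, the lowest was -0.64 (Mrps12). At 16 h 68 of 76 were below 0 in Top2b-/- cells, against 51.2% of all genes, with a median of -0.23, and 41 (53.9%) had Top2b-/- arrays all below the wild-type arrays, against 24.5% of all genes. At 72 h 35 of 76 were below 0, against 50.7% of all genes, with a median of 0.02. At 16 h the cardiomyocyte markers were also below 0 for 10 of 10, with a median of -0.38, and fibroblast markers were above 0 for 6 of 6, with a median of 1.11 and 3 higher. Endothelial markers were below 0 for 6 of 6, with a median of -0.78 and 1 lower, and smooth muscle and pericyte markers had a median of -0.91 with 2 lower. At 72 h these 4 medians were -0.14, -0.05, -0.02 and 0.08. The part of these markers in the members' values was not tested. Quantile normalization raised the count of members past the threshold at 16 h to 1 higher and 18 lower, against 14.2% of all genes in either direction. Without wild-type doxorubicin replicate 1, 2 or 3, which enter only through the shared spread, the counts were 12, 5 and 7. The shares of all genes were then 20.5%, 14.4% and 18.1%. Without the 4 arrays of conflicting labels 2 members passed, against 7.76% of all genes.

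Other genes of the mitochondrial translation pathway were read from 5 lists, whose counts at 16 h stand against 14.3% of all genes lower and 13.6% higher. In wild type after doxorubicin at 16 h, 0 of 12 translation factor genes were higher and 2 were lower, namely Mtfmt, which formylates the initiator methionyl-tRNA (-0.76 ± 0.19), and Guf1, a back-translocation factor (-0.52 ± 0.11). All 12 were below 0, with a median of -0.31. Of 19 genes for charging mitochondrial tRNAs, 5 were lower and 1 was higher. The largest decreases were in the tryptophanyl-tRNA synthetase Wars2 (-2.43 ± 0.24), in Qrsl1, a subunit of the glutaminyl-tRNA amidotransferase (-1.65 ± 0.27), and in the seryl-tRNA synthetase Sars2 (-0.78 ± 0.15), while the methionyl enzyme Mars2 was higher (0.95 ± 0.27). Of 15 genes for ribosome assembly and rRNA modification, 4 were lower and 1 was higher. Among them were Tfb1m, which methylates the small-subunit rRNA (-1.34 ± 0.38), the assembly GTPase Mtg1 (-0.72 ± 0.12) and the helicase Ddx28 (0.88 ± 0.14).

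Mitochondrial transcription and RNA processing was mixed, with 5 of 16 lower and 3 higher and a median of 0.01. Fastkd1 (-1 ± 0.31), the helicase Supv3l1 (-0.66 ± 0.15) and Fastk (-0.64 ± 0.12) were lower, and Fastkd5 (0.74 ± 0.14), Rg9mtd1, a subunit of mitochondrial RNase P (0.67 ± 0.20), and the tRNA 3′ processing enzyme Elac2 (0.41 ± 0.12) were higher. Of 6 subunits of the same ribosome that carry other names, Gadd45gip1 was lower (-0.54 ± 0.16) and Aurkaip1 was higher (0.29 ± 0.10). In Top2b-/- cells 0 genes of the 5 lists passed at either time. At 72 h in wild type 1 translation factor, Tsfm (-0.90 ± 0.20), and 1 tRNA-charging gene, Qrsl1 (-1.07 ± 0.19), were lower, and the 5 medians lay between -0.47 and -0.37.

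Between the genotypes in PBS, 2 genes of these lists were lower in Top2b-/- cells at both times. Gadd45gip1, a large-subunit protein, was at -1.59 ± 0.16 at 16 h (limma adjusted p = 0.000346) and -1.24 ± 0.15 at 72 h (limma adjusted p = 0.00194). Lars2, the leucyl-tRNA synthetase of mitochondria, was at -2.57 ± 0.15 at 16 h (limma adjusted p = 8.65e-06) and -1.63 ± 0.20 at 72 h (limma adjusted p = 0.00146). At 72 h no other gene of the 5 lists passed, and 1.07% of all genes were lower. At 16 h 6 of 19 tRNA-charging genes and 2 of 12 translation factors were lower. Of the assembly, transcription and other-named subunit lists, 1 of 15, 1 of 16 and 1 of 6 were lower, and 1 of these 6 subunits was higher. Over all genes 5.69% were lower and 6.67% higher. Among those called were Wars2 (-1.97 ± 0.24), Guf1 (-1.03 ± 0.11) and the elongation factor Tufm (-0.58 ± 0.14), all lower, and Aurkaip1, higher (0.75 ± 0.10).

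The cytosolic ribosome and complex I were read as the sets most like these genes. In wild type after doxorubicin at 16 h, 20 of 91 tested cytosolic ribosomal protein genes were higher and 2 were lower (all genes 13.6% higher and 14.3% lower), with a median of 0.23, against 0 higher, 18 lower and -0.24 for the mitochondrial set. At 72 h the cytosolic median was 0.02 with 1 lower, against -0.49 for the mitochondrial set. The Nduf genes of complex I, a respiratory complex that contains products of mitochondrial translation, had 6 of 42 lower and 0 higher at 16 h with a median of -0.16, a share lower equal to the 14.3% of all genes, and 0 called at 72 h with a median of -0.40. Between sets no test was made.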

How the data were processed

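RNA (100 ng per sample) from isolated cardiomyocytes was hybridised to 24 one-colour Agilent mouse arrays of 62976 spots, 3 per group. The deposited scanner tables hold processed signal as intensity. Per the file headers, the scans were read with Agilent Feature Extraction, version 10.7.3.1. A deposited value table was also used, and comparison with the scanner values showed that it holds a ratio, the processed signal over the median of its array.

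Genotype was taken from sample titles, with which source names and descriptions match. Control spots (59305 spots remained) and outlier flags (89 to 277 spots an array) were left out, and 0 spots were saturated. Spots of a probe were averaged, log2 intensity was set relative to the 75th percentile of each array, and each gene was read from its brightest probe detected in at least 1 of the 8 groups. Between 42.9% and 52.6% of probes were well above background on an array, and the number of arrays limits the precision. Differences were fitted by limma 3.58.1 in R 4.3.3 separately at each time over all 4 groups, with Benjamini-Hochberg adjustment over 18735 (16 h) or 19665 (72 h) genes and a threshold of 0.05. Named in each comparison were up to 10 members with the largest rise and 10 with the largest fall past the threshold, 9 set members (Mrpl3, Mrpl44, Mrpl12, Mrps22, Mrps16, Mrps18a, Mrps18b, Mrps18c, Mrpl10), the 3 members with the highest and the 3 with the lowest mean level (Mrpl33, Mrpl51, Mrpl14, Mrpl35, Mrps5, Mrpl1), and up to 3 genes per direction of each other list. Other named members, such as Mrps12, Mrps28 and Mrpl17, and the motif words were chosen after values were seen. The members and lists were chosen with earlier results of these data known. Promoters came from the RefSeq table for GRCm38.p6. Alternatives covered normalization, background correction, the deposited value table, filters, slide and replicate blocks, the genotype field and single arrays left out.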

Additional observations from a re-analysis of the deposited data

Results flagged for a closer look

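For 7 members (9.21%) the response to doxorubicin at 16 h differed between Top2b-/- and wild-type cells by the test of the difference itself. Over all genes 6.21% were higher and 11.5% passed in either direction, so the share of members was near the background. The Top2b-/- response minus the wild-type response was 1.36 for Mrpl34, 1.07 for Mrpl19 and 1.07 for Mrps16. It was 0.97 for Mrpl15, 0.83 for Mrpl45, 0.80 for Mrpl18 and 0.74 for Mrps22. With slide as a block these values were 1.21, 0.96, 0.92, 0.91, 0.70, 0.65 and 0.59 in the order Mrpl34, Mrpl19, Mrps16, Mrpl15, Mrpl45, Mrpl18 and Mrps22. None of these members passed, against 2% of all genes. The part of the slide in these differences was not separated from that of the genotype, because Top2b-/- doxorubicin arrays and wild-type arrays of 16 h share no slide.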

How the results depend on the processing

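Counts of members past the threshold moved with the processing, and so did the share of all genes past it. With slide as a block that share was 2% for the difference of responses at 16 h and 13.1% for wild-type doxorubicin at 72 h. The Top2b-/- doxorubicin count at 16 h was 0 in all settings, while its members below 0 ran from 1 (value table) to 32 (slide block). The median over all genes was 0.11 in the value table and 0.01 with slide as a block. Percentages in brackets below are the shares of all genes past the threshold. For wild-type doxorubicin at 16 h (18) the count was 29 with quantile normalization (30.2%), 11 with no filter on dim probes (11%) and 10 within slide 1 (17.5%). It was 10 without the 4 arrays of conflicting genotype fields (19.1%) and 0 by the other genotype field (0%). For Top2b-/- against wild type in PBS at 16 h (3) it was 19 with quantile normalization (14.2%) and 0 by the other field (0%). For the difference of responses at 16 h (7) it was 12 with quantile normalization (12.7%) and 2 with no filter (2.82%). It was 0 with slide as a block (2%) or by the other field (0%). By that field Top2b itself differed by only -0.26 at 16 h (exact permutation p = 0.509). For wild-type doxorubicin at 72 h (5) the count was 12 from the value table (4.92%), 8 with normexp (3.4%) and 0 with no filter (0.0631%). It was 10 with the strict filter (4.21%) and 43 with all 24 arrays in 1 fit (12%). It was 0 within slide 1 (4.02%), 0 with the Y-linked covariate (0.107%) and 24 with slide as a block (13.1%). For the genotypes in PBS at 72 h (1) the count was 0 from the value table (1.92%), with no filter (0.815%) and within slide 1 (3.1%). It was 2 with all 24 arrays (3.07%), slide as a block (4.03%) or the Y-linked covariate (2.17%). With single arrays left out, the counts ranged from 11 to 31, 2 to 12 and 1 to 16 for these comparisons at 16 h, and from 0 to 17 and 0 to 2 at 72 h. The shares of all genes ranged from 19.4% to 35.5%, 5.11% to 20.5% and 5.41% to 25.3% at 16 h. At 72 h they ranged from 0.00509% to 7.57% and 1.04% to 3.43%. The Top2b-/- doxorubicin counts were 0 to 0 at both times, as was the difference of responses at 72 h. Deviations of same-numbered arrays from their group means had correlations of -0.12 to 0.29 at 16 h. The median was 0.06, against -0.03 for other numbers. At 72 h the correlations were 0 to 0.73, over 0.1 in 16 of 18 pairs. The median was then 0.35, against -0.24 for other numbers, and 11 of 12 arrays correlated best with their own number. A replicate block gave 18, 0, 4 and 7 members at 16 h (wild-type doxorubicin, Top2b-/- doxorubicin, genotypes in PBS, difference of responses) and 37, 0, 2 and 0 at 72 h, where 16.1% of all genes passed in wild-type doxorubicin. Of 831 alternative values for 34 single-member results, 623 kept their side of the threshold, 208 lost it and 0 reversed. Where a count moved, the cause was not tested.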
